A study of Homo sapiens with 14 samples.

Results

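The 38 genes described here are 18 genes of the hypoxia-inducible factor (HIF) pathway and 20 genes of glycolysis, followed across human melanoma cells in which the forkhead transcription factor FOXD1 was targeted by siRNA or overexpressed. They were chosen by symbol, with earlier results of these data known, and each was represented by the brightest probe annotated to it, on the authors' log2 scale. Counts of members called therefore stand beside the share over all genes as a description only. Of the 20043 genes with a named probe on the array, 36 belong to this set, since no probe used here was named for CA9 or SLC16A3. A gene was tested if its probe was detected (detection p under 0.05) on at least 2 of the 14 arrays, which 35 members and 15458 genes in all passed. EGLN3 did not pass. The tested members were 16 of the HIF pathway and 19 of glycolysis, and they are described apart.

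HIF is a dimer of an oxygen-regulated alpha subunit (HIF1A or EPAS1, also called HIF-2α) and a constant beta subunit. In oxygenated cells the prolyl hydroxylases EGLN1 and EGLN3 mark the alpha subunit for destruction by the VHL ubiquitin ligase, so most of the control over HIF acts on the protein, which an array does not measure. When oxygen is low, the dimer binds short ACGTG or GCGTG cores near its target genes, which serve vessel growth, pH control, collagen modification, removal of mitochondria and glycolysis. Tumour cells, melanoma cells among them, often run glycolysis fast even with oxygen present. The labels describe culture in a humidified CO2 incubator and name no hypoxic step.

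The line WM266-4 received control siRNA (the Stealth RNAi negative control named "hi GC"), FOXD1 siRNA 1 or FOXD1 siRNA 2, with 3 arrays each. The line A375 received the FOXD1 plasmid (3 arrays) or its empty backbone (2 arrays), and its labels speak both of transfection and of transduction. Both lines carry a BRAF mutation per the labels, so all 5 groups share it, and the promoter of the plasmid, the doses and the times are not given in the sources used here. No label says whether replicates came from separate cultures, and p-values therefore cover only the spread between these arrays, possibly a technical one. In such bulk RNA a change in the share of cells that express a gene and a change in RNA per cell cannot be told apart.

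Between 22104 and 24257 probes were detected per array, and the number of arrays limits the precision. FOXD1 was at 7.06 ± 0.13 with control siRNA and 6.54 ± 0.08 with siRNA 1, a fall of 1.43-fold (limma adjusted p = 0.00113, SD, n = 3 each). Its probe was detected on 1 of the 3 siRNA 1 arrays, so this fold was read near the dim end of the scale. After normexp background correction the fall was 2.62-fold. FOXD1 was at 7.10 ± 0.04 on the arrays labelled FOXD1 siRNA 2, where it was not lower (0.04, 95% interval -0.16 to 0.24, adjusted p = 0.874), so results from those arrays do not describe cells with a measured loss of FOXD1. A label field of those 3 arrays names FOXD2 in place of FOXD1, and FOXD2 differed by -0.04 there (adjusted p = 0.907). In A375, FOXD1 was at 7.85 ± 0.01 with vector (n = 2) and 8.16 ± 0.15 with overexpression (n = 3), a difference of 0.31 that did not pass the test (adjusted p = 0.0741). Whether the probe detects the transgene is not known, so the label "overexpression" is used as given. Of the melanocyte lineage markers TYR, PMEL, SOX10 and MITF were detected on every array, while MLANA was not detected on the control arrays of WM266-4. The 12 markers of keratinocytes, fibroblasts, leukocytes and endothelium had group means between 6.34 and 7.22 where the dimmest probes of the arrays were at 6.04 to 6.07. Some of them were detected, VWF on every array (6.82 to 7.22) and LYZ on every WM266-4 array. The lineage marker S100B was also dim, at 6.76 to 7.39.

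The 2 siRNA strands are shown because the groups of WM266-4 differ by them; FOXD1 lies on chromosome 5, and the sequences are those of the labels, 25 bases each.
FOXD1 siRNA 1: UACUGCUAGGAUUUCCAAUUGUUAA
FOXD1 siRNA 2: GCCGAGGAAACAGACAUCGACGUGG

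Stretches of promoter are shown for 8 members, 4 from each arm of the set, to show how differently the HIF cores are laid out in genes that moved. They come from RefSeq (GRCh38.p14), read 5′ to 3′ on the strand of the gene, and lie upstream of its annotated start. Capitals mark ACGTG or GCGTG on either strand (CACGT and CACGC on the printed one); CACGTG, which holds ACGTG on both strands and is also the E-box that MYC and the BHLHE40 family bind, is in capitals as a whole. ANKRD37 (chr4:185396659-185396722, + strand), KDM3A (chr2:86441325-86441369, + strand), ADM (chr11:10304952-10304996, + strand) and BNIP3 (chr10:131982003-131982086, - strand) are HIF targets outside glycolysis. HK2 (chr2:74834956-74835124, + strand), GPI (chr19:34364810-34364854, + strand), ENO2 (chr12:6914442-6914486, + strand) and LDHA (chr11:18396208-18396252, + strand) encode enzymes of glycolysis.
ANKRD37: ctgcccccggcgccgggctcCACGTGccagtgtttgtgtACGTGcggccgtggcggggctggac
KDM3A: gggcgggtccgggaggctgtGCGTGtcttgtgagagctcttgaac
ADM: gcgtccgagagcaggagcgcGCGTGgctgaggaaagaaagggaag
BNIP3: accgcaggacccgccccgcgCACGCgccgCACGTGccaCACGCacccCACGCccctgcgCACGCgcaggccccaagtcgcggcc
HK2: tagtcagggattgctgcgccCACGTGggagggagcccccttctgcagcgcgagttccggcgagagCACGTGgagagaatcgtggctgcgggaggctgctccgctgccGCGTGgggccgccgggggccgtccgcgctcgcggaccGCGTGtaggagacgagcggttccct
GPI: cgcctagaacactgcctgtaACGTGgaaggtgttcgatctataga
ENO2: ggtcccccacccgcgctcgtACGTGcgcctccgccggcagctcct
LDHA: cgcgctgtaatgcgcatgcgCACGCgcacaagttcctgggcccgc

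BNIP3 and HK2 held 6 matches each (a CACGTG counts once per strand), ANKRD37 held 3, and the other 5 shown held 1. In a window of 300 bases around the start, ACGTG or GCGTG occurred on either strand in 29 of the 35 members with a promoter in the table, 12 of 15 in the HIF pathway and 17 of 20 in glycolysis. The same held for 48.4% of all 35116 promoters and 54.7% of the 22199 of coding genes. The longer core ACGTGC occurred in 11 of 35 members and in 6.89% of all promoters, and CACGTG in 7 of 35 members and 7.26% of all promoters. HIF1A, EGLN3, P4HA2, HK1, PFKM and PGAM1 held neither short core in this window. A match is a description of letters and not a site of binding, and several HIF targets are known to be bound outside such a window.

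With FOXD1 siRNA 1, HIF1A and 6 of the 13 measured HIF targets fell, most of them by close to 2-fold, while EPAS1 and NDRG1 rose. The comparison sets WM266-4 arrays with siRNA 1, on which FOXD1 was lower, against the control siRNA arrays. The part of FOXD1 in the changes cannot be told apart from other effects of this siRNA and was not tested. In the HIF pathway 7 of 16 tested members fell and 2 rose, where 7.45% of all 15458 genes were called lower, 7.94% higher and 15.4% in either direction. The median change was -0.22 against 0.00 over all genes. In glycolysis 2 of 19 fell and 1 rose, and 17 of the 19 changes were negative, with a median of -0.12. The medians rest in part on single arrays: without control replicate 2 they were -0.15 in the HIF pathway and -0.08 in glycolysis, and without siRNA 1 replicate 3 that of glycolysis was -0.07.

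HIF1A, the oxygen-regulated subunit itself, was at 10.10, 10.20 and 10.23 with control siRNA and at 8.84, 9.31 and 9.50 with siRNA 1. Each siRNA 1 array lay below every control array. The fall was 0.96 on the log2 scale, or 1.95-fold (SE 0.145, limma adjusted p = 0.00026). Further HIF1A probes fell by 0.90 (adjusted p = 0.000121) and 0.59 (adjusted p = 0.00229) in a fit across all named probes. EPAS1, the alternative alpha subunit, moved the other way, from 7.41, 7.71 and 7.83 to 8.13, 8.13 and 8.39, a rise of 1.48-fold (SE 0.146, adjusted p = 0.0143). EGLN1, a prolyl hydroxylase, differed by -0.21 (adjusted p = 0.345), and EGLN3 was detected on 1 of the 14 arrays only.

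Of the targets, BNIP3L, a mitophagy receptor also known as NIX, fell most. It was at 9.55, 10.06 and 9.91 with control siRNA and at 8.49, 8.33 and 8.34 with siRNA 1, a fall of 2.74-fold (SE 0.182, adjusted p = 5e-05), and its second probe fell by 1.14 (adjusted p = 4.88e-05). The groups lay over 1 log2 unit apart at their nearest arrays. BNIP3, its paralogue with the same role, was at 10.37, 11.25 and 10.80 and then at 9.84, 10.00 and 10.02, a fall of 1.81-fold (SE 0.173, adjusted p = 0.0028). The control arrays of BNIP3 were themselves spread over most of a log2 unit.

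ANKRD37, a small ankyrin repeat protein and one of the most HIF-dependent transcripts known, was at 7.98, 8.67 and 8.25 with control siRNA and at 7.10, 7.28 and 7.31 with siRNA 1, a fall of 2.10-fold (SE 0.142, adjusted p = 8.87e-05). KDM3A, a histone H3 lysine 9 demethylase, was at 8.48, 9.16 and 8.70 and then at 7.61, 7.76 and 7.82, a fall of 2.07-fold (SE 0.143, adjusted p = 0.000112). Neither gene's groups overlapped, and the siRNA 1 arrays were closer together than the control arrays. ADM, which encodes the vasodilator peptide adrenomedullin, was at 12.31, 12.54 and 12.19 and then at 11.28, 11.25 and 11.50, a fall of 2.00-fold (SE 0.217, adjusted p = 0.00451). BHLHE40, a transcriptional repressor of the circadian and hypoxic responses, was at 12.06, 12.39 and 11.98 and then at 11.38, 11.38 and 11.49, a fall of 1.65-fold (SE 0.197, adjusted p = 0.0189). NDRG1, a stress-responsive protein induced by HIF and by other signals, rose against this direction, from 12.29, 12.05 and 12.16 to 12.48, 12.45 and 12.62 (1.27-fold, SE 0.095, adjusted p = 0.019).

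**Figure D1:**
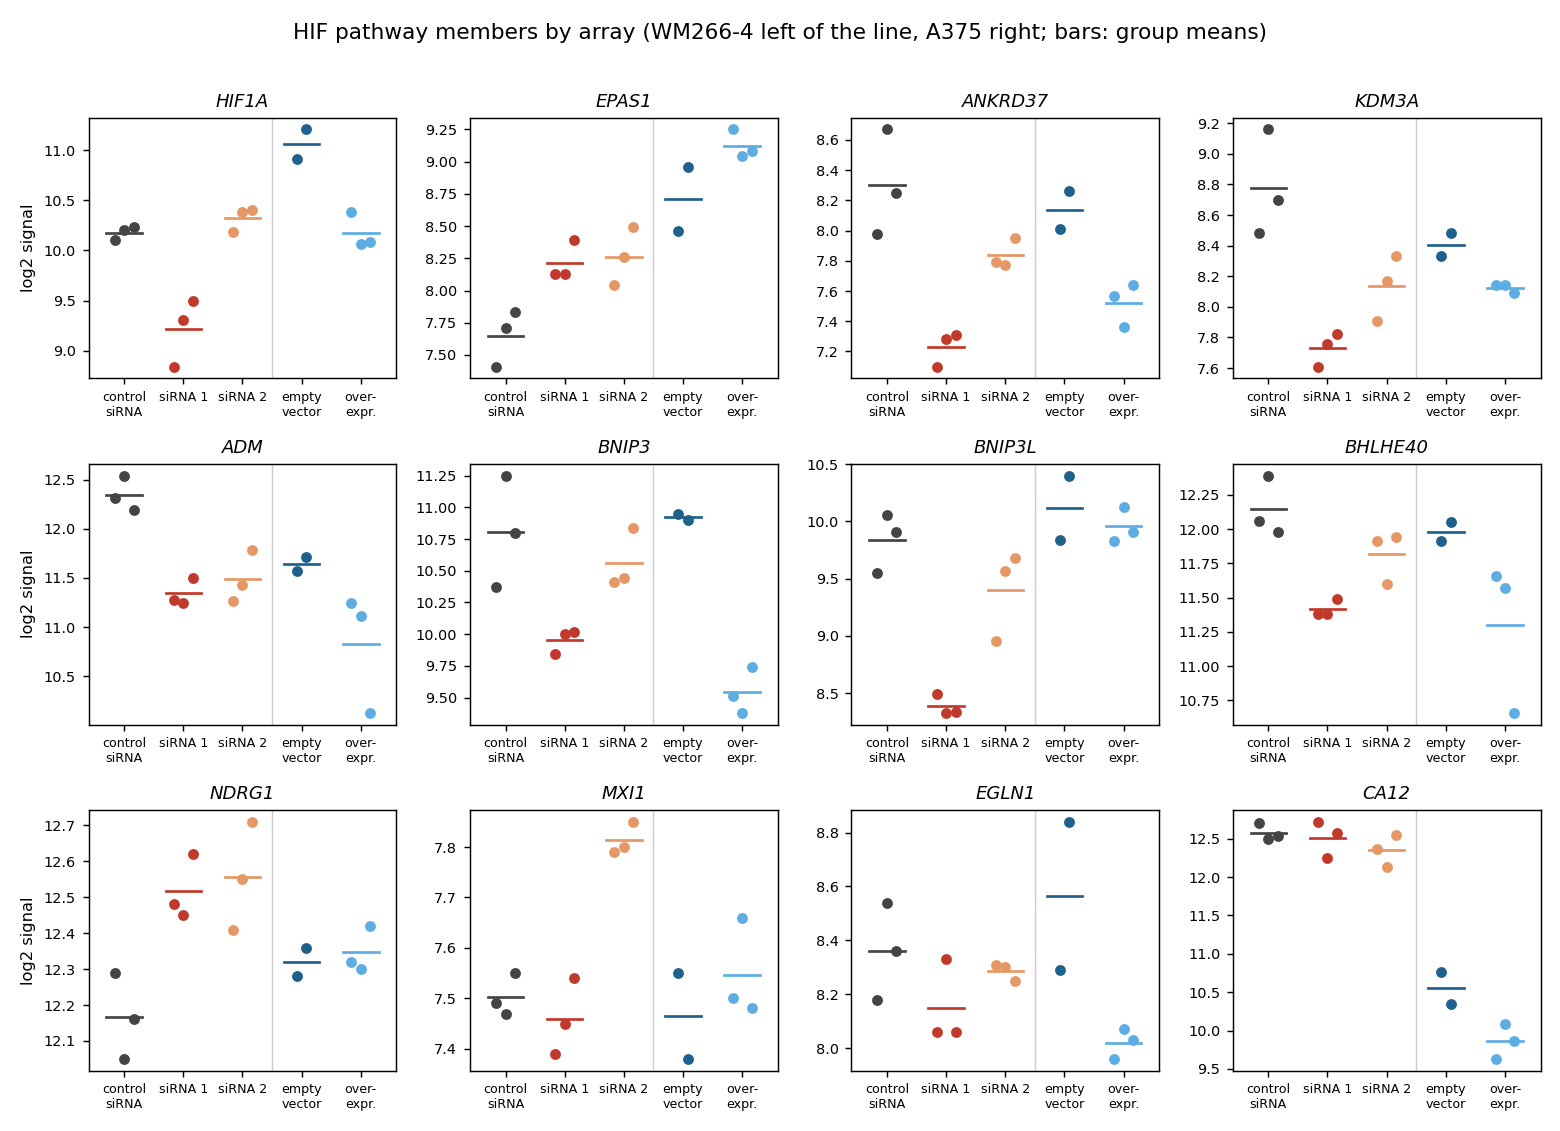
Log2 signal of HIF pathway genes on each array (points) with group means (bars); WM266-4 arrays stand left of the grey line and A375 arrays right of it, and each line was normalized apart. HIF1A is lower with siRNA 1 and with overexpression and not on the arrays labelled siRNA 2, while BNIP3L is lower with siRNA 1 and differs by -0.16 with overexpression.

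The other HIF targets did not pass the test with siRNA 1. These were VEGFA, the vessel growth factor (-0.12), CA12, a carbonic anhydrase at the cell surface (-0.06), P4HA1 and P4HA2, the collagen prolyl hydroxylases (-0.10 and -0.24), MXI1, a MYC antagonist (-0.04), and DDIT4, an mTOR inhibitor (-0.10). Their limma adjusted p ran from 0.263 for P4HA2 to 0.879 for DDIT4.

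Among the glycolysis members, 3 of 19 passed the test with siRNA 1, where 15.4% of all genes were called in either direction. PFKP, the platelet-type phosphofructokinase, was at 10.79, 11.29 and 10.94 with control siRNA and at 10.15, 10.33 and 10.20 with siRNA 1, a fall of 1.72-fold (SE 0.154, limma adjusted p = 0.00229). PFKM, the muscle-type isoform of the same enzyme, rose from 9.08, 8.88 and 9.26 to 9.60, 9.55 and 9.54 (1.40-fold, SE 0.154, adjusted p = 0.0412). These isoforms of the same step thus had changes of opposite sign. The PFKM call was lost with normexp background correction (limma adjusted p = 0.091) and without single arrays, as given below. PGAM1, a phosphoglycerate mutase, fell by 0.33 (SE 0.106, adjusted p = 0.0476), and its second probe by 0.49 (adjusted p = 0.00277). ALDOA, the main aldolase, differed by -0.39 (adjusted p = 0.0539), which passed with the replicate number as a block in WM266-4 (adjusted p = 0.0151). Further from 0 but also short of the test were GPI (-0.48, adjusted p = 0.0695), HK2 (-0.43, 0.207), ENO2 (-0.37, 0.323), PFKFB4 (-0.32, 0.251), PFKFB3 (-0.22, 0.4), PGK1 (-0.21, 0.384) and PFKL (0.20, 0.456). LDHA (0.00), GAPDH (-0.01), ENO1 (-0.02), PKM (-0.02), HK1 (-0.04), TPI1 (-0.06), PDK1 (-0.07) and ALDOC (-0.12) did not pass either, and the 95% interval for LDHA was -0.20 to 0.19. With the replicate number as a block in both lines, GPI (0.000446), HK2 (0.00906) and PFKFB4 (0.0181) were called lower too; the numbers did not pair the arrays in A375, so that fit is given as an alternative only.

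Without single arrays of this comparison some of these calls ended. BHLHE40 was lost without control replicate 2 (adjusted p = 0.0994) or siRNA 1 replicates 1 or 2 (0.0645 and 0.0581), EPAS1 without control replicate 1 or siRNA 1 replicate 3 (0.0804 and 0.0738), and NDRG1 without control replicate 2 or siRNA 1 replicate 3 (0.0999 and 0.0908). PFKM was lost without any of 7 arrays, which were control replicates 1 and 2, the 3 siRNA 1 arrays and siRNA 2 replicates 1 and 3 (0.053 to 0.18). PGAM1 was lost without any of 10, which were control replicates 2 and 3, all 6 arrays of the siRNA groups and overexpression replicates 1 and 2 (0.0544 to 0.209). The calls of HIF1A, BNIP3L, BNIP3, ANKRD37, KDM3A, ADM and PFKP held without each of the 14 arrays in turn. All control arrays are shared with the comparison that follows, so the pair are not independent of each other.

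On the arrays labelled FOXD1 siRNA 2, where FOXD1 was not lower, HIF1A was not lower either, and KDM3A and ADM fell. In the HIF pathway 2 of 16 fell and 3 rose, where 3.88% of all genes were called lower and 5.12% higher (9% in either direction). The median was -0.25 against 0.00 over all genes. With single arrays left out it ran from -0.19 (without siRNA 2 replicates 1 or 2) to -0.37 (without siRNA 2 replicate 3). HIF1A was at 10.18, 10.38 and 10.40, a difference of 0.14 from control (95% interval -0.16 to 0.45, limma adjusted p = 0.661). EPAS1 rose to 8.04, 8.26 and 8.49 (1.53-fold, SE 0.146, adjusted p = 0.0144). NDRG1 rose to 12.41, 12.55 and 12.71 (1.31-fold, SE 0.095, adjusted p = 0.0164), and MXI1 to 7.79, 7.80 and 7.85 from 7.49, 7.47 and 7.55 (1.24-fold, SE 0.0826, adjusted p = 0.0269). Other MXI1 probes did not pass (0.16 and 0.05, adjusted p = 0.493 and 0.857), and with the mean of all its probes the call was lost (0.17, adjusted p = 0.154).

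KDM3A was at 7.91, 8.17 and 8.33 on these arrays, between the control and the siRNA 1 arrays, a fall of 1.56-fold from control (SE 0.143, adjusted p = 0.00954). ADM was at 11.27, 11.43 and 11.78, a fall of 1.81-fold (SE 0.217, adjusted p = 0.021). ANKRD37 was at 7.79, 7.77 and 7.95 and differed by -0.46 (adjusted p = 0.0536), which passed with the replicate number as a block in WM266-4 (adjusted p = 0.0285). BNIP3L (-0.44, adjusted p = 0.174), BHLHE40 (-0.33, adjusted p = 0.394), BNIP3 (-0.24, adjusted p = 0.491) and P4HA2 (-0.35, adjusted p = 0.104) did not pass, though a second P4HA2 probe was called (-0.43, adjusted p = 0.0432). With the replicate number as a block in both lines BNIP3L (0.0234), P4HA2 (0.0215) and DDIT4 (-0.39, 0.0344) were called lower and LDHA (0.043) higher.

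In glycolysis 0 of 19 members were called on the arrays labelled siRNA 2 by limma, and 2 had an unadjusted p under 0.05. The median was 0.00, with -0.08 without control replicate 1 and 0.06 without control replicate 2. LDHA, lactate dehydrogenase A, was at 13.62, 13.60 and 13.63 against 13.22, 13.57 and 13.23 with control siRNA, a difference of 0.28 (adjusted p = 0.0771) in which no array overlapped. Its second probe was called (0.43, adjusted p = 0.0228). PFKP (-0.26) and ALDOA (-0.14) did not pass (adjusted p = 0.374 and 0.612). None of the 5 HIF pathway calls held without each array in turn. KDM3A was lost without siRNA 2 replicate 1 (0.0547), EPAS1 without control replicate 1 or siRNA 2 replicate 3 (0.0836 and 0.075), NDRG1 without control replicate 2 or siRNA 2 replicate 3 (0.0855 and 0.0823), ADM without control replicates 1 or 2 or siRNA 2 replicates 1 or 2 (0.0611 to 0.0946), and MXI1 without any of 5 arrays, control replicates 1 and 2 and the 3 arrays labelled siRNA 2 (0.0606 to 0.0956).

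The siRNA groups were next compared directly, where the control and A375 arrays enter only through the shared estimate of the spread. HIF1A and 4 HIF targets were lower with siRNA 1, 5 of 16 in the HIF pathway with none higher, where 4.49% of all genes were called lower and 2.74% higher (7.23% in either direction). HIF1A was 2.15-fold lower with siRNA 1 (-1.10, SE 0.145, limma adjusted p = 0.000157) and BNIP3L 2.02-fold lower (-1.02, SE 0.182, adjusted p = 0.00233). In both genes every siRNA 1 array lay below every array labelled siRNA 2. ANKRD37 (-0.61, adjusted p = 0.015), BNIP3 (-0.61, adjusted p = 0.0434) and MXI1 (-0.35, adjusted p = 0.015) were lower as well. The MXI1 call came from its brightest probe, since the other probes differed by 0.00 and -0.15 and the mean of all probes by -0.17 (adjusted p = 0.189). BNIP3 was lost with median centring (0.082), without the detection filter (0.0527) and with WM266-4 fitted alone (0.0543). ADM (-0.15, 95% interval -0.61 to 0.31) and EPAS1 (-0.05, interval -0.36 to 0.26) were not separated between the siRNAs. KDM3A differed by -0.41 (adjusted p = 0.112), called with the replicate number as a block in WM266-4 (0.0316).

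In glycolysis 0 of 19 members differed between the siRNAs by limma, and 5 had an unadjusted p under 0.05, with a median of -0.13 (-0.24 without siRNA 2 replicate 1). PFKP differed by -0.52 (adjusted p = 0.0555), called with the block in WM266-4 (0.0342). With the replicate number as a block in both lines, 6 glycolysis members were called lower with siRNA 1, namely PFKP (0.000592), ENO2 (-0.55, 0.00879), PFKFB4 (-0.35, 0.0158), HK2 (-0.38, 0.0331), LDHA (-0.28, 0.0455) and GPI (-0.27, 0.0494), as was BHLHE40 (-0.40, 0.0239) of the HIF pathway. HIF1A and BNIP3L held without each array in turn, whereas ANKRD37 and MXI1 were lost without siRNA 1 replicate 1 (0.0817 and 0.0788) or siRNA 2 replicate 3 (0.0624 and 0.0527). BNIP3 was lost without any of 10 arrays, which were all 6 of the siRNA groups, control replicate 3, both vector arrays and overexpression replicate 1 (0.0532 to 0.181).

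**Figure D2:**
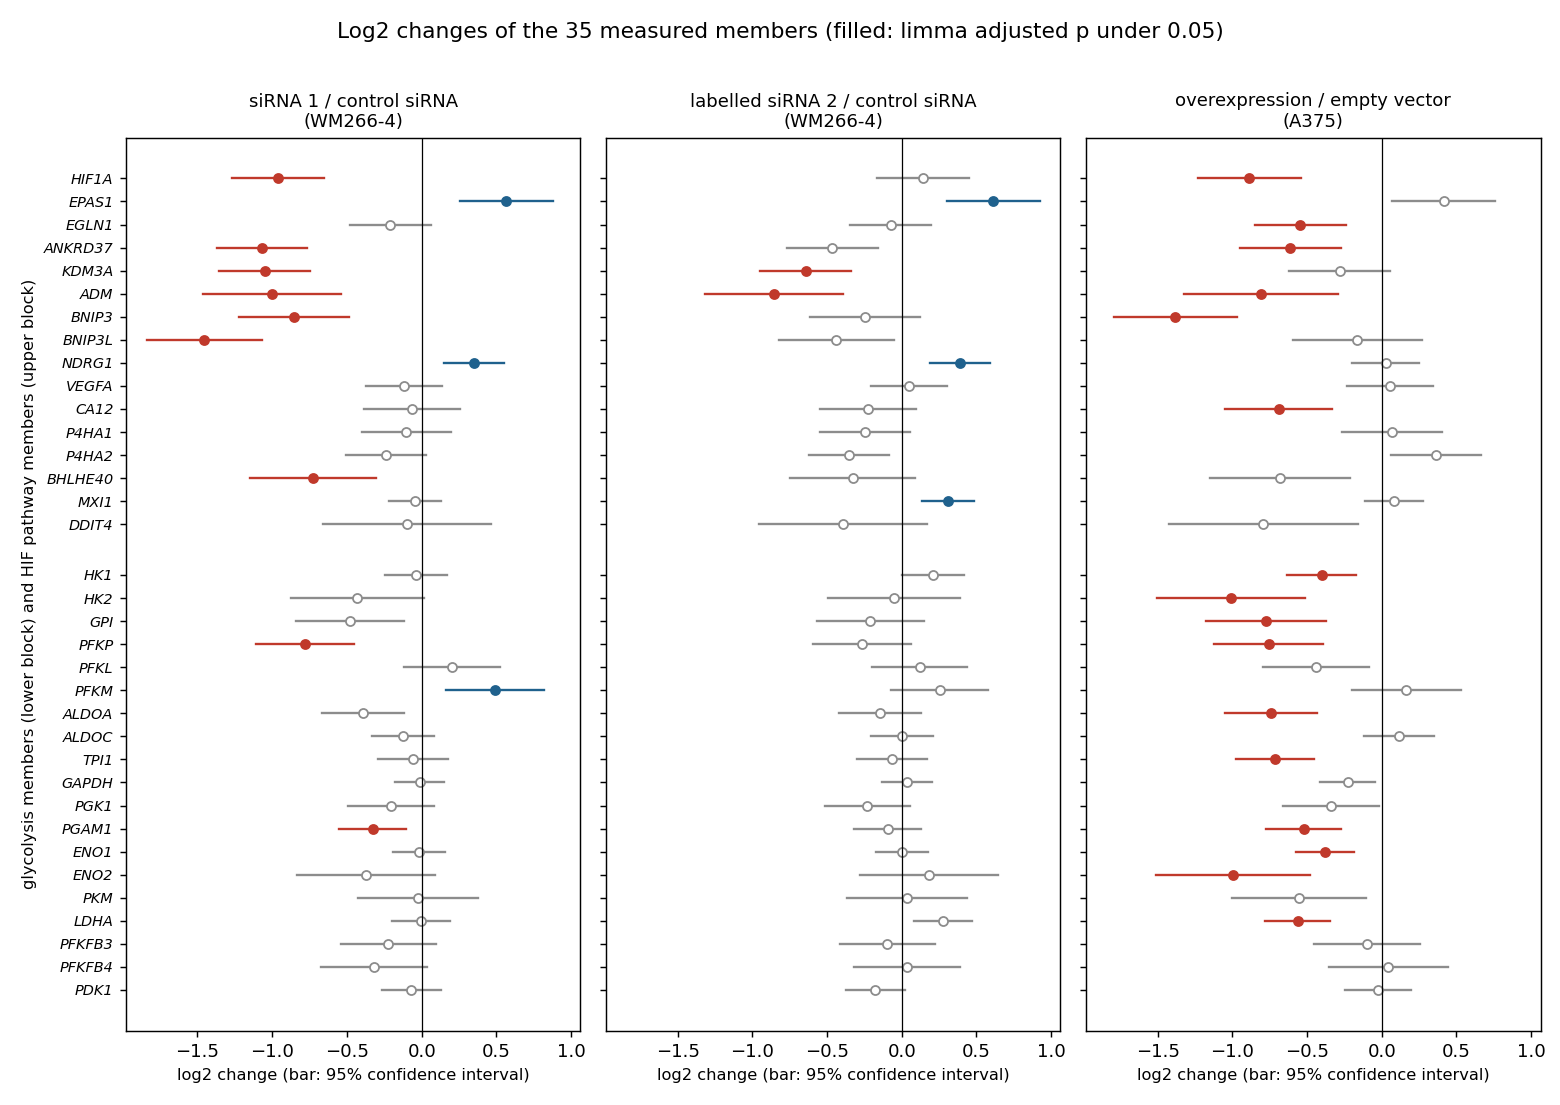
Log2 change (x axis) of each tested member with each siRNA against control siRNA and with overexpression against empty vector. The 95% confidence intervals are from the limma fit, and filled points passed the test at an adjusted p under 0.05. Most glycolysis enzymes lie nearer 0 in the siRNA comparisons, PFKP with siRNA 1 being an exception. Below 0 lie 14 of 16 with overexpression, likewise 14 of 16 with siRNA 1, and 7 of 16 on the arrays labelled siRNA 2.

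With FOXD1 overexpression in A375, glycolysis enzymes fell across most steps of the pathway, and HIF1A and several HIF targets were lower too. In glycolysis 10 of 19 tested members fell and 0 rose, where 5.17% of all 15458 genes were called lower and 5.53% higher (10.7% in either direction). All 10 were among the 16 enzymes, of which 14 had a negative change, as many as with siRNA 1. Their median was -0.54 (-0.09 with siRNA 1) against 0.00 over all genes. The comparison rests on 2 vector arrays and 3 overexpression arrays, and a single vector array decides most of these calls, as given below.

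By step of the pathway, hexokinases come first. HK2, the inducible hexokinase, was at 9.58 and 9.41 with vector and at 8.31, 8.12 and 9.02 with overexpression, a fall of 2.02-fold (SE 0.233, limma adjusted p = 0.0116), and its second probe fell by 0.65 (adjusted p = 0.0261). HK1, the constitutive form, was at 12.34 and 12.31 and then at 11.93, 12.05 and 11.79 (1.32-fold lower, SE 0.109, adjusted p = 0.0269). GPI, glucose-6-phosphate isomerase, was at 11.33 and 11.58 and then at 10.92, 10.95 and 10.17 (1.71-fold lower, SE 0.189, adjusted p = 0.016). In GPI, PFKP and ENO2 overexpression replicate 3 was the lowest array, and by less in HK1, ALDOA and LDHA. In HK2, TPI1, PGAM1 and ENO1 it was not. Averaged over the tested glycolysis members, replicate 3 deviated from its group mean by -0.164, against 0.085 and 0.079 for replicates 1 and 2.

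Of the phosphofructokinases, PFKP was at 10.87 and 11.19 with vector and at 10.37, 10.55 and 9.90 with overexpression, a fall of 1.69-fold (SE 0.172, adjusted p = 0.0109). PFKL, the liver-type form, differed by -0.44 (adjusted p = 0.111) and PFKM by 0.165 (adjusted p = 0.647). ALDOA was at 12.14 and 12.41 and then at 11.64, 11.62 and 11.34 (1.67-fold lower, SE 0.145, adjusted p = 0.00467), and its second bright probe fell by 0.89 (adjusted p = 0.000868). ALDOC, the brain-type aldolase, lay low on the scale at 6.75 to 6.95 in A375 and differed by 0.115 (adjusted p = 0.605). TPI1, triosephosphate isomerase, was at 12.52 and 12.42 and then at 11.63, 11.81 and 11.83, a fall of 1.64-fold (SE 0.123, adjusted p = 0.00215). In TPI1 the groups were separated by more than their own spread, and its second probe fell by 0.76 (adjusted p = 0.00645).

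In the later, ATP-yielding steps, GAPDH and PGK1 did not pass by their brightest probes (-0.23, adjusted p = 0.114, and -0.34, adjusted p = 0.177). Their other probes did: GAPDH fell by 0.44 and 0.465 (adjusted p = 0.00679 and 0.00314) and PGK1, phosphoglycerate kinase, by 0.645 (adjusted p = 0.00734). The brightest GAPDH probe was at 13.67 and 13.79 with vector and 13.50, 13.50 and 13.51 with overexpression, near the upper end of the A375 scale at 14.26. PGAM1 was at 10.43 and 10.85 and then at 10.05, 10.19 and 10.11 (1.44-fold lower, SE 0.118, adjusted p = 0.0104). ENO1, the ubiquitous enolase, was at 13.77 and 13.82 and then at 13.29, 13.57 and 13.38 (a fall of 0.38, SE 0.0915, adjusted p = 0.0146). ENO2, the neuronal enolase, was at 9.55 and 9.86 and then at 9.17, 8.84 and 8.12 (1.99-fold lower, SE 0.243, adjusted p = 0.0161).

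LDHA, which turns pyruvate into lactate, was at 13.82 and 13.84 with vector and at 13.28, 13.27 and 13.25 with overexpression, a fall of 1.48-fold (SE 0.103, adjusted p = 0.00311). This probe, like that of GAPDH, lies near the upper end of the scale. The other LDHA probes fell by 0.66 (adjusted p = 0.00353) and 1.015 (adjusted p = 0.000121). PKM, pyruvate kinase, could not be settled, since its vector arrays were at 11.13 and 12.22 and the overexpression arrays at 11.20, 11.03 and 11.13 (-0.555, adjusted p = 0.112). Without empty vector replicate 1 it was lower by the test (adjusted p = 0.000886), which then sets the overexpression arrays against the single vector array at 12.22. The dimmest of its measured probes was called (-0.99, adjusted p = 0.0475). The regulators did not pass: PFKFB3 (-0.10) and PFKFB4 (0.04), which set the level of the phosphofructokinase activator fructose-2,6-bisphosphate, and PDK1 (-0.03), which turns off pyruvate dehydrogenase and lay low on the scale at 6.56 to 6.70 (adjusted p = 0.8 to 0.93).

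**Figure D3:**
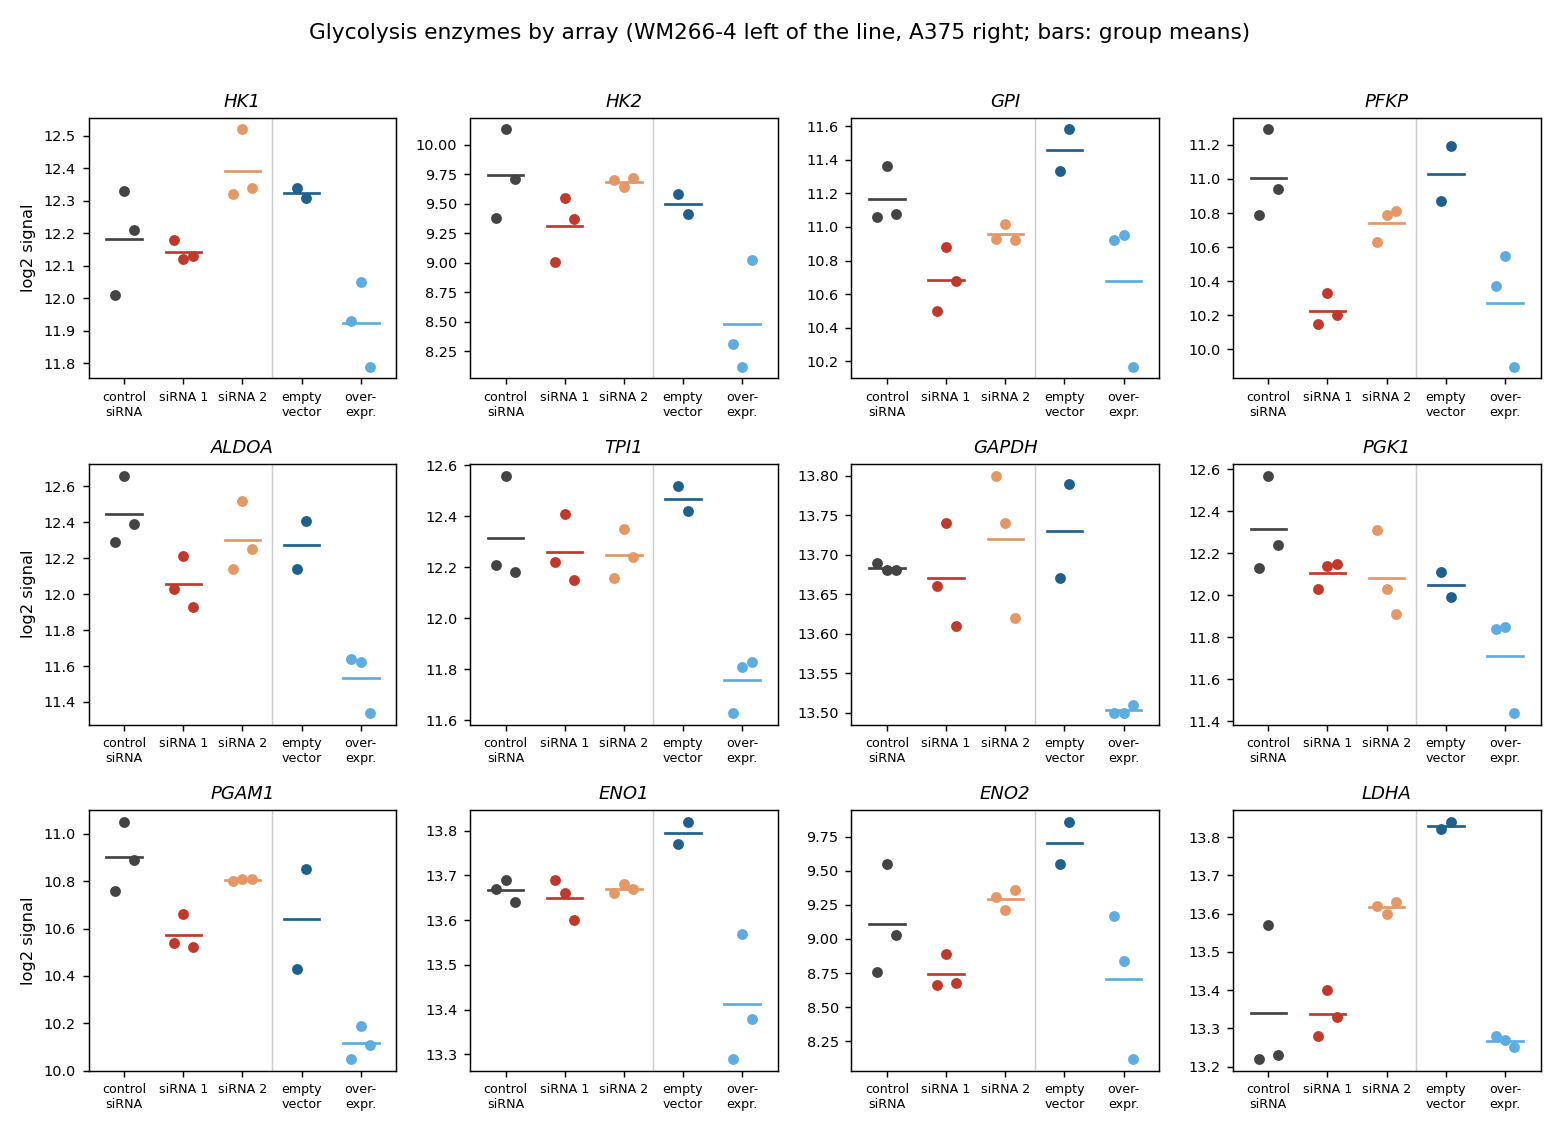
Log2 signal of 12 glycolysis enzymes on each array (points) with group means (bars), WM266-4 left of the grey line and A375 right of it; the y axes differ between panels. LDHA and TPI1 show separated A375 groups, while in PGAM1 and GPI the arrays within a group are further apart.

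**Figure D4:**
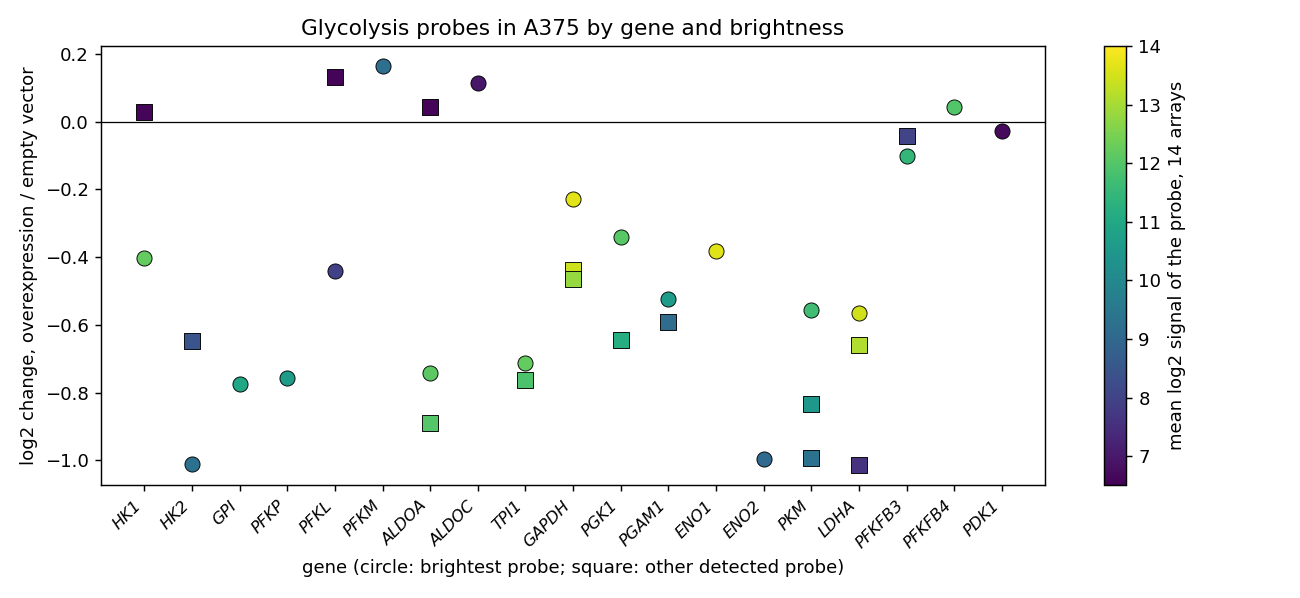
Log2 change with overexpression in A375 for each measured probe of the tested glycolysis members, with the brightest probe of each gene marked. The GAPDH, PGK1 and LDHA probes that are not the brightest fell further than the brightest one.

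In the HIF pathway 6 of 16 tested members fell with overexpression and 0 rose, where 5.17% of all genes were called lower and 5.53% higher (10.7% in either direction). The median was -0.41 against 0.00 over all genes, or -0.24 without empty vector replicate 2. HIF1A was at 10.91 and 11.21 with vector and at 10.38, 10.06 and 10.08 with overexpression, a fall of 1.85-fold (SE 0.162, limma adjusted p = 0.00312), and its other probes fell by 1.03 (adjusted p = 0.000348) and 0.82 (adjusted p = 0.0012). EPAS1 was at 8.46 and 8.96 and then at 9.25, 9.04 and 9.08, a difference of 0.41 (adjusted p = 0.125), which was called with the replicate number as a block in WM266-4 (adjusted p = 0.049). EGLN1, itself induced by HIF, fell by 0.545 (SE 0.143, adjusted p = 0.0229). HIF1A was thus lower than the control both with siRNA 1 in WM266-4 and with overexpression in A375.

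BNIP3 fell most of all tested members, from 10.95 and 10.90 to 9.51, 9.38 and 9.74 (2.61-fold, SE 0.194, adjusted p = 0.000485). Its paralogue BNIP3L was at 9.84 and 10.40 and then at 9.83, 10.13 and 9.91, a difference of -0.16 (95% interval -0.59 to 0.27, adjusted p = 0.714). CA12 was at 10.76 and 10.34 and then at 9.63, 10.08 and 9.87 (1.61-fold lower, SE 0.169, adjusted p = 0.0161), and its second probe fell by 0.815 (adjusted p = 0.00505). ADM, at 11.57 and 11.71 and then at 11.25, 11.11 and 10.13, fell by 0.81 (SE 0.243, adjusted p = 0.0436), and ANKRD37, at 8.01 and 8.26 and then at 7.57, 7.36 and 7.64, by 0.61 (SE 0.159, adjusted p = 0.0219). In ADM, BHLHE40 and DDIT4 overexpression replicate 3 lay far below the other overexpression arrays. BHLHE40 (-0.68, adjusted p = 0.0594), DDIT4 (-0.79, adjusted p = 0.104), KDM3A (-0.28, adjusted p = 0.313), VEGFA (0.055), NDRG1 (0.03), MXI1 (0.08), P4HA1 (0.07) and P4HA2 (0.36, adjusted p = 0.118; second probe 0.50, adjusted p = 0.0326) did not pass by their brightest probes.

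BNIP3, LDHA and TPI1 held without each of the 14 arrays in turn, and the other 13 calls did not. Leaving out a vector array leaves 1, which the fit assumes to vary like the arrays of the other groups. Without empty vector replicate 2, glycolysis kept 2 of its 10 calls and the HIF pathway had 2 in place of 6, and 385 genes in all were called in place of 1654; 16 of 19 glycolysis members were still lower, with a median of -0.36 in place of -0.44. The 12 members that lost their call had changes from -0.27 (EGLN1) to -1.10 (HK2), HIF1A at -0.74, ALDOA at -0.61 and PGAM1 at -0.31 among them. Lost without that array were ADM (0.26), ALDOA (0.0956), ANKRD37 (0.233), EGLN1 (0.386), ENO1 (0.13), ENO2 (0.183), GPI (0.183), HIF1A (0.0726), HK1 (0.142), HK2 (0.0766), PFKP (0.167) and PGAM1 (0.207). Without empty vector replicate 1, ADM, CA12, HK1 and HK2 were lost (0.11, 0.173, 0.112 and 0.078), and EGLN1 was at -0.82. Single overexpression arrays ended ANKRD37 (replicate 2, 0.0762), CA12 and EGLN1 (replicate 1, 0.0532 and 0.058), HK1 (replicates 1 and 3, 0.0525 and 0.0747) and ADM (replicate 3, -0.46, 0.0675), and ADM was also lost without control replicates 1 or 3, any siRNA 1 array or siRNA 2 replicates 1 or 2 (0.05 to 0.0585). With A375 fitted alone, 3 of 10 glycolysis calls and 3 of 6 HIF pathway calls were left, with 571 genes called in all. With the replicate number as a block in both lines, PFKM (0.40, 0.0176) was called higher and PKM (-0.56, 0.0491) lower. Of 6 melanocyte lineage markers measured, MLANA (1.66), S100B (0.52) and TYR (0.49) rose in the same comparison while PMEL differed by -0.98, and their part in the result was not tested. The markers of the other 4 cell types had 0 calls.

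Further genes of the same pathways were taken from 3 lists, chosen, as the members were, with earlier results of these data known. With siRNA 1, 7 of 29 other HIF targets fell and 2 rose, against 7.45% and 7.94% of all genes. SLC2A3, the neuronal-type glucose transporter GLUT3, fell 6.26-fold (-2.65, SE 0.249), ANGPTL4, an inhibitor of lipoprotein lipase, fell by 1.33, AK4, a mitochondrial adenylate kinase, fell by 0.92, and CITED2, which competes with HIF for its coactivators, rose by 0.99. Of 15 other HIF regulators 2 fell and 2 rose. ELOC (-0.80) and RBX1 (-0.49), subunits of the VHL ubiquitin ligase, fell, while VHL (0.56) and the beta subunit ARNT2 (0.37) rose. Of 23 other glycolysis and pyruvate genes 3 rose and 1 fell, with BSG, the chaperone of the lactate transporters, at 0.72, TIGAR, a fructose bisphosphatase, at 0.44, PGM2 at -0.41 and MPC1, a subunit of the mitochondrial pyruvate carrier, at 0.38.

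On the arrays labelled siRNA 2, 4 of the 29 targets fell and 1 rose, against 3.88% and 5.12% of all genes. SLC2A3 fell by 1.32, ERRFI1, a feedback inhibitor of the EGF receptor, by 0.94 and ANGPTL4 by 0.89, and FAM162A, a mitochondrial protein, rose by 0.67. Of the regulators HIF1AN, the asparagine hydroxylase that blocks HIF, fell by 0.56, and of the pyruvate genes MPC1 (0.50), DLAT (0.41) and MPC2 (0.34) rose. SLC2A3 was also lower with siRNA 1 than on the arrays labelled siRNA 2 (-1.33, limma adjusted p = 0.00334). With overexpression 5 of the 29 targets fell and 1 rose, against 5.17% and 5.53% of all genes. ANGPTL4 fell by 1.15, SLC2A3 by 1.12 and SLC2A1, the main glucose transporter GLUT1, by 0.875, while PLOD2, a collagen lysyl hydroxylase, rose by 0.875. None of the 15 regulators and none of the 23 other glycolysis and pyruvate genes were called there by limma (0 and 0, with 0 and 1 at an unadjusted p under 0.05), whereas 10 of the 16 glycolysis enzymes were.

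Control levels were set side by side between the lines, as far as tables normalized apart allow. CA12 was 4.07-fold lower in A375 vector arrays (10.34 and 10.76) than in WM266-4 control siRNA arrays (12.49 to 12.71), and EPAS1 was 2.08-fold higher (8.46 and 8.96 against 7.41 to 7.83). HIF1A was 1.84-fold higher and VEGFA 1.72-fold lower in A375. Only CA12 and EPAS1 differed by 2-fold or more among the 36 members with a probe on the authors' scale; after normexp HIF1A (1.01) and VEGFA (-1.29) did so too, and no test was made.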

How the data were processed

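Biotin-labelled total RNA was measured on 14 Illumina bead arrays; titles gave the groups and the replicate numbers. The authors' deposited table holds log2 signal. Set against the deposited intensity of each probe, it equals in WM266-4 the log2 intensity quantile normalized over that line's arrays, without background subtraction (highest difference 0.0053). In A375 this was not recomputed; ranks of log2 value and intensity agree (rho 0.9999) on all arrays but empty vector replicate 1 (0.777). Detection p-values were deposited beside the intensities, and the file headers do not say how the authors calculated them. For A375 empty vector replicate 1 the intensities repeat those of overexpression replicate 3 (100% of probes within 1%), so the log2 table was tested, in which each array has its own column.

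Of 48107 probes, 48097 had no missing value; the platform annotation gave 30107 of them 1 symbol, 8 several and 17982 none, and 30068 matched RefSeq genes (GRCh38.p14) by identifier. The brightest named probe by mean stood for each gene and was kept if its detection p was under 0.05 on at least 2 arrays. A single limma fit (3.58.1, R 4.3.3) held the 5 groups without covariates (9 residual and 6.53 prior degrees of freedom). Calls needed an adjusted p (Benjamini-Hochberg, 15458 genes) under 0.05; every adjusted p in the text is from limma. Other probes of a gene were read from a like fit over 21569 named probes. The fit was tested on simulated data.

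In WM266-4 the replicate numbers pair the arrays: all 9 same-number pairs deviated together (r of 0.224 to 0.393), and in A375 they did not (-0.03 and 0.06). The fit with the number as a block in WM266-4 alone was chosen after seeing the data, and its value stands beside each member whose call it changes. All members are described, and called genes of the further lists are named, at most the 4 with the largest change per list and comparison. Members and lists were chosen with earlier results of these data known. Alternatives were background correction, normalization, scaling, the detection filter, the probe per gene, moderation, each line apart, the block and each array left out.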

Additional observations from a re-analysis of the deposited data

Results flagged for a closer look

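For 5 HIF pathway members the effects of the siRNAs differed by a direct limma test of siRNA 1 minus siRNA 2, and each was lower with siRNA 1. The differences were -1.10 for HIF1A (adjusted p = 0.000157), -1.02 for BNIP3L (0.00233), -0.61 for BNIP3 (0.0434), -0.61 for ANKRD37 (0.015) and -0.35 for MXI1 (0.015). HIF1A, BNIP3L, BNIP3 and ANKRD37 had fallen with siRNA 1, whereas MXI1 had risen on the arrays labelled siRNA 2. All 3 siRNA 1 arrays lay below all 3 arrays labelled siRNA 2 in each of the 5 genes, which were picked by the test on these same arrays. That separation is thus no further support, and its share over all genes is not given here. FOXD1 differed in the same comparison by -0.56 (adjusted p = 0.00137), and its part in these differences was not tested.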

How the results depend on the processing

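No change of a called member reversed sign in any setting. With normexp background correction, 3 HIF pathway members were called on the arrays labelled siRNA 2 in place of 5, and 1 glycolysis member with siRNA 1 in place of 3; the calls lost were ADM (0.0822 with overexpression, 0.0509 on the arrays labelled siRNA 2), NDRG1 (0.0778 with siRNA 1, 0.0751 with siRNA 2), BNIP3 between the siRNAs (0.0871), ENO1 (0.145), HK1 (0.132), PFKM (0.091) and PGAM1 (0.136). It moved ANKRD37 with siRNA 1 from -1.07 to -1.68 and between the siRNAs from -0.61 to -1.04, MXI1 from 0.31 to 0.50 with siRNA 2 and from -0.35 to -0.58 between the siRNAs, and the glycolysis medians to -0.22 with siRNA 1 and -0.24 between the siRNAs. Other called members moved too. With siRNA 1 KDM3A went from -1.05 to -1.40, BNIP3L from -1.45 to -1.68 and EPAS1 from 0.57 to 0.84. With siRNA 2 EPAS1 went from 0.61 to 0.89. Normexp put 4 members at least 2-fold apart between the lines in place of 2. In the settings computed from intensities, empty vector replicate 1 entered as its authors' log2 value turned back to intensity. The other arrays entered at their deposited intensities. With the copied column left in the normexp calculation, overexpression gave 0 called genes, 0 HIF pathway and 0 glycolysis calls, with medians of -0.16 and -0.20. That run makes a vector array a copy of overexpression replicate 3, so its loss of calls follows from the copy and does not weigh on the other settings. In the same run siRNA 1 gave 5 HIF pathway and 0 glycolysis calls, siRNA 2 gave 726 genes and 3 HIF pathway calls, and their difference gave 619 genes. With each line fitted apart, overexpression gave 571 genes, 3 HIF pathway and 3 glycolysis calls, and glycolysis calls were 6 with siRNA 1 and 3 between the siRNAs.

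With the planned replicate block in both lines, 7 glycolysis members were called with siRNA 1, 2541 genes, 9 HIF pathway and 1 glycolysis member with siRNA 2, 2152 genes and 6 glycolysis members between the siRNAs and 2644 genes with overexpression. With the replicate block in WM266-4 alone 1 glycolysis member (PFKP) was called between the siRNAs, and beside the 5 member calls named in the report it changed no other member's call. The mean of all probes gave 1 glycolysis call for siRNA 2, and the stricter filter and the trend and robust moderation gave 1 each between the siRNAs. PGAM1 with siRNA 1 was lost with quantile normalization over both lines (0.051), median centring (0.0654), no detection filter (0.0507) and trend and robust moderation (0.0642). MXI1 with siRNA 2 was lost with that moderation (0.0556), HK1 with overexpression with the mean of all probes (-0.19, 0.131), and ADM with no filter (0.0543), the mean of probes (0.0512) and the moderation (0.0919; 0.0577 on the arrays labelled siRNA 2). The longer core ACGTGC was held by 11 members in place of 29.

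Leaving out each array in turn gave 1568 to 2767 called genes with siRNA 1 (7 to 9 HIF pathway and 1 to 5 glycolysis calls), 873 to 1724 with siRNA 2 (2 to 7 and 0 to 1), 637 to 1371 between them (2 to 6 and 0 to 2) and 385 to 1719 with overexpression (2 to 7 and 2 to 10). The gene counts that moved by over 1.5 times were those without control replicate 2 (1568 with siRNA 1, 874 with siRNA 2), control replicate 1 (873 with siRNA 2), siRNA 2 replicate 1 (924), siRNA 1 replicates 1 and 3 (637 and 711 between the siRNAs) and empty vector replicate 2 (385). Leaving out 1 array also added member calls. Without overexpression replicate 3 these were ALDOA and GPI with siRNA 1 (0.0325 and 0.00516), ANKRD37 and P4HA2 with siRNA 2 (0.0398 and 0.0477), BHLHE40, ENO2 and PFKP between the siRNAs (0.0363, 0.0364 and 0.0127) and PFKM with overexpression (0.0442). Without replicates 1 or 2 of that group they were BHLHE40 (0.0233 and 0.0464), and without replicate 2 also DDIT4 (0.044) and PFKP between the siRNAs (0.0402). Without control replicate 2 they were LDHA with siRNA 2 (0.0114) and KDM3A, LDHA and PFKP between the siRNAs (0.0362, 0.0323 and 0.0389), without control replicate 1 ANKRD37 with siRNA 2 (0.0137) and ALDOA with siRNA 1 (0.048), and ALDOA also without siRNA 1 or siRNA 2 replicate 2 (0.0467 and 0.0399). A block on slide or scan date was not run, since neither table used here gives one. Low probes such as PDK1 and ALDOC lie close to the dim end of the scale, where values without background subtraction understate a change: FOXD1 fell by 1.39 with siRNA 1 after normexp and by 0.52 on the authors' scale.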
